A study of Mus musculus with 4 samples.

Results

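The genes described here encode the cell-surface receptors for 2 growth factor families, namely Gfra1 and Ret for GDNF and Fgfr1, Fgfr2 and Fgfr3 for the FGFs. The 5 genes were taken by name from the 26041 gene symbols listed for the sorted testis cells, and all 5 were listed in both genotypes. The data are 3′-end single cell counts from 1249 tdTOMATO+ cells of 4 wk old mice, sorted one cell per well into 4 plates. The mice of both genotypes carry the Eomes-iCreERt2-tdTomato knock-in, which places the reporter under control of the Eomes gene, and the sort gate was set with littermates lacking tdTOMATO. Plzf +/+ cells came from plates 1, 2 and 4 (317, 303 and 277 cells) and Plzf lu/lu cells, which carry the luxoid mutation of Plzf (Zbtb16), from plates 3 and 4 (314 and 38 cells). Each genotype on each plate is called a library below. No source used here ties a library to an animal, so that the spread between libraries may be technical.

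GFRA1 is anchored to the outer membrane by a lipid and binds GDNF, and RET is the transmembrane tyrosine kinase that the GDNF and GFRA1 pair activates. GDNF from Sertoli and peritubular myoid cells sustains self-renewal of spermatogonial stem cells, and GFRA1 is a standard mark of the earliest spermatogonia. FGFR1, FGFR2 and FGFR3 are tyrosine kinases that bind FGFs with heparan sulfate as a cofactor, and FGF2 is used beside GDNF to grow spermatogonial stem cells in culture.

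The libraries held 254514 to 2608702 UMIs, each UMI standing for 1 captured transcript, and the Plzf lu/lu library of plate 4 was the smallest. Zbtb16 itself was at 76.7, 51.8 and 72.3 CPM (UMIs of the gene scaled to a fixed library total, here with TMM factors) in the Plzf +/+ libraries and at 18.3 and 12.1 in the Plzf lu/lu libraries. Eomes, the gene behind the sort, was at 20.6, 11.9 and 11.8 normalized CPM in Plzf +/+ and at 1.99 and 0 in Plzf lu/lu, with an edgeR adjusted p of 0.0801. The 5 germ cell markers were all detected, with a summed level of 1844 to 2038 CPM in Plzf +/+ and 2225 to 2314 in Plzf lu/lu. The 11 Sertoli cell markers, all detected, summed to 128 to 168 CPM in Plzf +/+ and 460 to 792 in Plzf lu/lu, and the 18 markers of undifferentiated spermatogonia to 858 to 943 and 542 to 664 CPM. The 12 spermatid markers varied between plates more than between genotypes, at 1536 to 6242 CPM in Plzf +/+ and 2193 to 6318 in Plzf lu/lu. Markers of Leydig cells and macrophages were near the detection limit at 1.15 to 3.93 and 2.35 to 7.86 CPM over all libraries, with 2 of 6 and 3 of 6 genes detected. Peritubular myoid markers summed to 12.2 to 36.2 CPM in Plzf +/+ and 37.2 to 47.1 in Plzf lu/lu. For T and NK cell markers the values were 17.8 to 58.6 and 23.6 to 31.8 CPM, and for endothelial markers 12.5 to 25.8 and 11.8 to 11.9. No cell barcode was shared between the genotypes on plate 4, and 5 Plzf +/+ cells of that plate lay outside the wells that the labels give to Plzf +/+.

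Gfra1 was the most abundant of the receptors in every library. On plates 1, 2 and 4 the Plzf +/+ cells gave 508, 550 and 413 Gfra1 UMIs, and on plates 3 and 4 the Plzf lu/lu cells gave 333 and 34. Scaled to the UMIs of all genes, these are 239, 232 and 206 CPM against 128 and 134 CPM. Both Plzf lu/lu libraries were therefore below all 3 Plzf +/+ libraries. In Plzf +/+ cells only 726 of the 24609 genes with a UMI had more UMIs than Gfra1, and in Plzf lu/lu cells 1576 genes did.

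Ret, the co-receptor, was next in every library. It was at 88.3, 95.3 and 96.8 CPM in Plzf +/+ and at 90.1 and 70.7 CPM in Plzf lu/lu, where the second value rests on 18 UMIs. The Plzf lu/lu library of plate 3 lay inside the Plzf +/+ range and that of plate 4 below it. Because each transcript was counted once at its 3′ end, these CPM values do not scale with transcript length.

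Among the FGF receptors, Fgfr1 was the only one with more than 6 UMIs in a library. It was at 21.6, 18.1 and 21.9 CPM in Plzf +/+ and at 9.20 and 19.6 CPM in Plzf lu/lu, the last from 5 UMIs, so that the groups overlapped. Fgfr2 had 2, 6 and 4 UMIs in Plzf +/+ and 6 and 0 in Plzf lu/lu. Fgfr3 had 4, 2 and 1 UMIs in Plzf +/+ and 2 and 0 in Plzf lu/lu. The order of levels was Gfra1, Ret, Fgfr1 in each of the 5 libraries, while Fgfr2 and Fgfr3 overlapped and could not be ordered. With 38 cells in the smaller Plzf lu/lu library, 0 cells allowed a share of cells with a captured UMI, not of cells expressing the gene, of up to 7.89% for either gene when 3 cells are taken as the limit, and up to 9.25% by the exact interval used for the other shares.

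**Figure D1:**
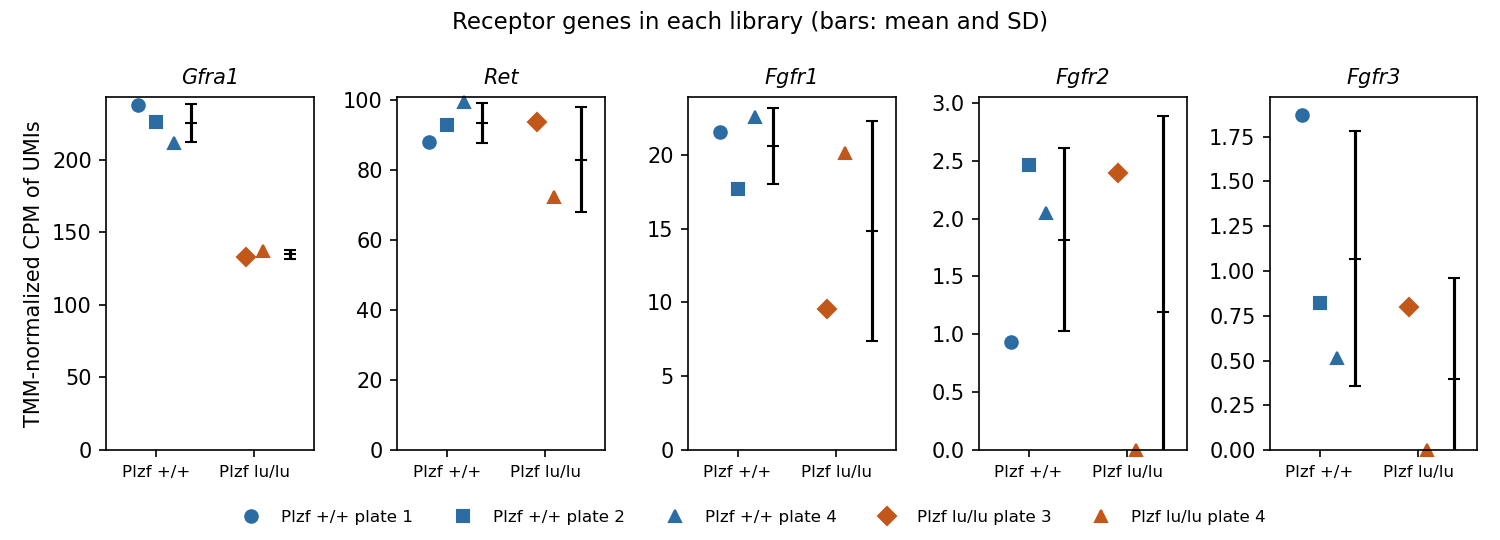
Level of each receptor gene in each library, as CPM of UMIs scaled by TMM factors (vertical axes start at 0 and differ between genes), with the mean and SD of each genotype in black. The Plzf lu/lu libraries lay below all Plzf +/+ libraries for Gfra1 (133 and 137 against 212 to 238), whereas the 2 genotypes overlapped for Ret, Fgfr1, Fgfr2 and Fgfr3.

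In single cells, Gfra1 was detected in 64.7% (95% exact interval 59.1 to 69.9), 66.0% (60.4 to 71.3) and 58.1% (52.1 to 64.0) of the Plzf +/+ cells of plates 1, 2 and 4. It was detected in 37.9% (32.5 to 43.5) and 39.5% (24 to 56.6) of the Plzf lu/lu cells of plates 3 and 4. Without equal depth, the mean number of Gfra1 UMIs per cell with a Gfra1 UMI was 2.48, 2.75 and 2.57 in Plzf +/+. In Plzf lu/lu it was 2.80 and 2.27, so that these ranges overlapped. With cells reduced at random to 2000 UMIs each, in 1 thinning, cells keeping a Gfra1 UMI had Gfra1 at 684, 740 and 691 CPM in Plzf +/+. In Plzf lu/lu it was at 640 and 500 CPM, the last from 5 UMIs in 5 cells. There both Plzf lu/lu libraries lay below all Plzf +/+ libraries. Whether the level per Gfra1-bearing cell differs between genotypes was not tested.

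Ret was detected in 38.5%, 42.2% and 42.6% of Plzf +/+ cells and in 36.9% and 34.2% of Plzf lu/lu cells, and the exact intervals of all 5 libraries overlapped. Fgfr1 was detected in 12.0%, 13.2% and 12.6% of Plzf +/+ cells and in 7.32% and 10.5% of Plzf lu/lu cells. Fgfr2 was seen in 12 of 897 Plzf +/+ cells and 4 of 352 Plzf lu/lu cells, and Fgfr3 in 6 and 2. None of the 5 receptors was detected in 229 of 897 Plzf +/+ cells (25.5%, exact interval 22.7 to 28.5) and in 158 of 352 Plzf lu/lu cells (44.9%, 39.6 to 50.2). The intervals in this and the preceding paragraph cover counting error only.

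Shares of cells with a UMI depend on the depth of each cell, which ran from 612 to 95069 UMIs in Plzf +/+ and from 1391 to 56651 in Plzf lu/lu. To set the cells at equal depth, the share expected when each cell is reduced at random to 2000 UMIs was computed exactly, leaving out the 63 Plzf +/+ and 19 Plzf lu/lu cells with fewer. At that depth Gfra1 was expected in 37.8%, 39.5% and 34.0% of the Plzf +/+ cells and in 16.9% and 18.7% of the Plzf lu/lu cells. The means were 37.1% ± 2.84 (SD, n = 3) and 17.8% ± 1.29 (SD, n = 2), a ratio of 0.481. At 1000 UMIs per cell the ratio was 0.547, and at 5000 UMIs, which only the deeper 549 and 208 cells reached, it was 0.665. At all 3 depths both Plzf lu/lu libraries were below all Plzf +/+ libraries.

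Ret at 2000 UMIs per cell was expected in 16.6%, 19.5% and 19.9% of Plzf +/+ cells and in 14.6% and 12.5% of Plzf lu/lu cells. The means were 18.7% ± 1.78 (SD, n = 3) and 13.5% ± 1.5 (SD, n = 2). Both Plzf lu/lu libraries were again the lowest, but the gap between the nearest libraries of the 2 genotypes was smaller than the range within Plzf +/+. Fgfr1 was expected in 4.46% ± 0.709 (SD, n = 3) of Plzf +/+ cells and 2.41% ± 0.955 (SD, n = 2) of Plzf lu/lu cells. At 5000 UMIs the Plzf lu/lu library of plate 4, with 19 cells left, had the highest Fgfr1 share of all at 11.5%, and that of plate 3 the lowest at 3.83%. Fgfr2 and Fgfr3 were expected in under 1% of cells in each library at 2000 UMIs.

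**Figure D2:**
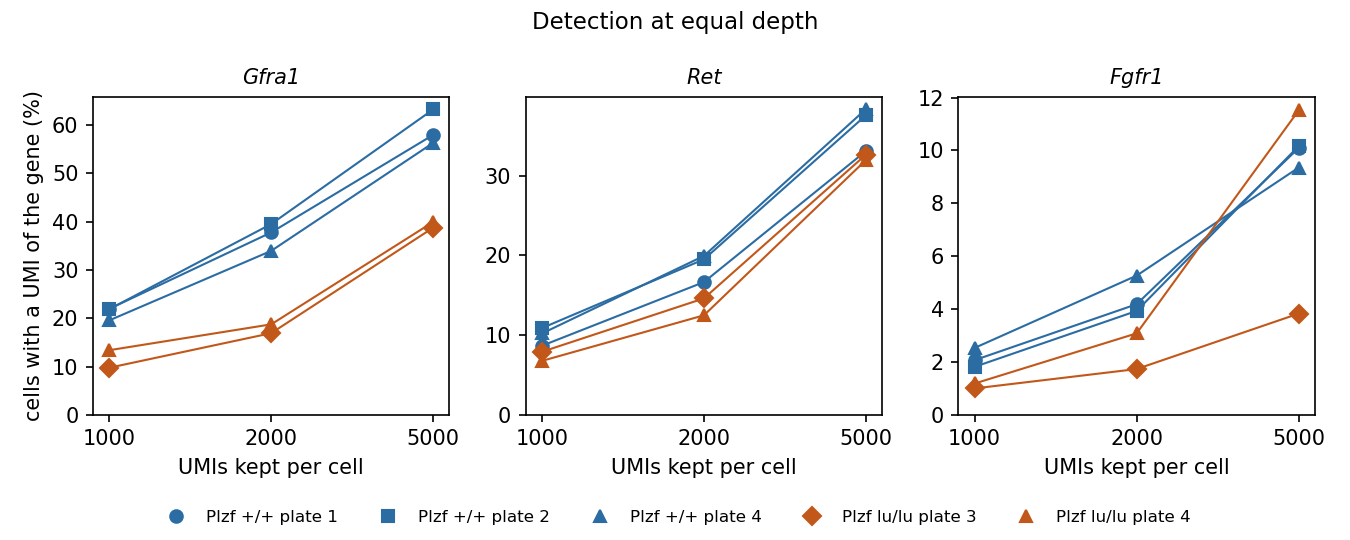
Expected percentage of cells with at least 1 UMI of Gfra1, Ret or Fgfr1 (vertical axes, from 0) when every cell is reduced to 1000, 2000 or 5000 UMIs (horizontal axis), 1 line per library. For Gfra1 the 2 Plzf lu/lu lines ran below the 3 Plzf +/+ lines throughout, at 16.9% and 18.7% against 34.0% to 39.5% for 2000 UMIs.

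Co-detection was asked next, since GDNF signalling through RET uses GFRA1 and RET in the same cell. Without equal depth, Gfra1 and Ret were both seen in 95 of 317, 107 of 303 and 88 of 277 Plzf +/+ cells and in 75 of 314 and 8 of 38 Plzf lu/lu cells. At 2000 UMIs both were expected in 7.89%, 10.5% and 8.16% of Plzf +/+ cells and in 4.57% and 2.44% of Plzf lu/lu cells. At this depth the product of the 2 single shares, which is what independent capture in identical cells would give, was exceeded in each library. The ratio of the joint share to that product was 1.25, 1.37 and 1.21 in Plzf +/+ and 1.85 and 1.04 in Plzf lu/lu, the last from 29 cells. For these few cells of plate 4 the direction depended on the setting, with a ratio of 0.565 at 1000 UMIs and 1.39 at 5000 UMIs, and at 2000 UMIs of 0.936 among cells with a Dazl UMI and 0.903 without the spermatid-like and Sertoli-like cells described below. In the other 4 libraries the ratio was above 1 at all 3 depths.

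Put another way, Ret was expected in 20.9%, 26.7% and 24% of the Plzf +/+ cells that kept a Gfra1 UMI and in 14.1%, 14.8% and 17.8% of those that did not. In Plzf lu/lu the pairs were 27.0% against 12.1% on plate 3 and 13.0% against 12.4% on plate 4. Conversely, Gfra1 was expected in 47.4%, 54.0% and 40.9% of the Ret-bearing cells of Plzf +/+ and in 31.3% and 19.5% of those of Plzf lu/lu. The cells of a library share its handling and mix of cell types, and no test was made of these ratios.

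Fgfr1 showed no such regularity with Gfra1. The ratio of the joint share to the product was 1.04, 1.29 and 0.892 in Plzf +/+ and 0.946 and 0.468 in Plzf lu/lu, so that the libraries fell on both sides of 1. For Ret and Fgfr1 the ratios were 0.940, 1.19 and 1.75 in Plzf +/+ and 0.867 and 1.56 in Plzf lu/lu. At 5000 UMIs the ratios for Ret and Fgfr1 were above 1 in all 5 libraries, at 1.07 to 1.27, whereas those for Gfra1 and Fgfr1 still fell on both sides of 1, at 0.397 to 1.31. Without equal depth, Gfra1 was also seen in 6 of 6 Plzf +/+ cells and 1 of 2 Plzf lu/lu cells with an Fgfr3 UMI, and in 10 of 12 Plzf +/+ cells and 0 of 4 Plzf lu/lu cells with an Fgfr2 UMI. No cell held both Fgfr2 and Fgfr3, and none held all 5 receptors.

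**Figure D3:**
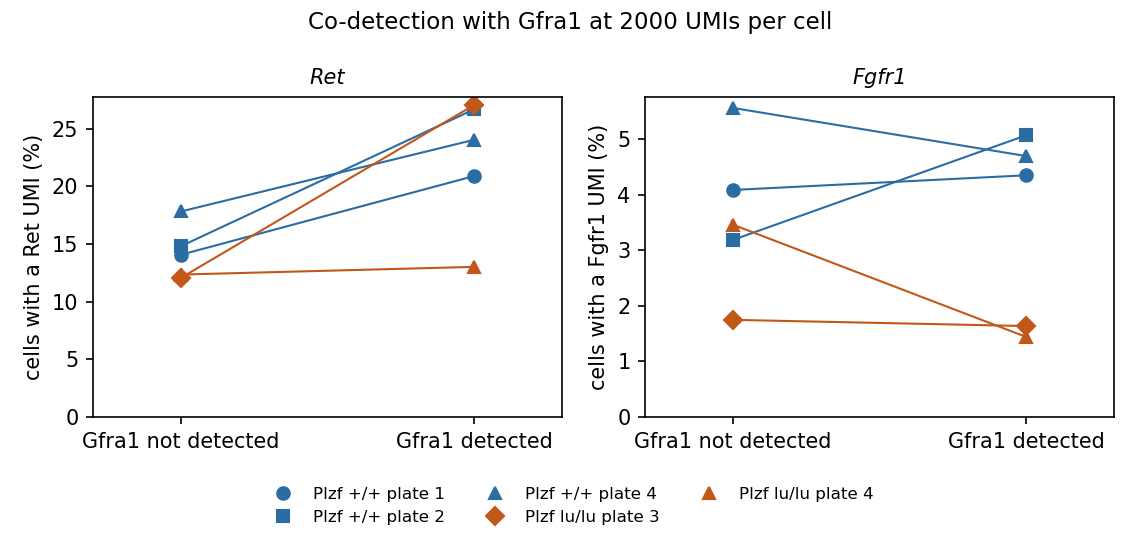
Expected percentage of cells with a Ret UMI (left) or an Fgfr1 UMI (right) among cells without and with a Gfra1 UMI, at 2000 UMIs per cell, 1 line per library with axes from 0. Every Ret line ran upward from left to right, from 12.1% to 27.0% in the steepest case and from 12.4% to 13.0% in the flattest, whereas the Fgfr1 lines ran in both directions.

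To test the relation of Ret to Gfra1 with the library as the unit, UMIs of thinned Plzf +/+ cells were summed by whether a Gfra1 UMI remained, giving 6 sums paired within plates. In 1 thinning Ret was at 101, 190 and 86.4 CPM in the Gfra1-detected sums of plates 1, 2 and 4 and at 82.9, 65.3 and 109 CPM in the Gfra1-undetected sums. Ret was higher with Gfra1 on plates 1 and 2 and lower on plate 4. The log2 fold change was 0.53 ± 0.26 (SE), with an edgeR adjusted p of 0.463. Ret, the 1 receptor tested, was not called, whereas 1.17% of the 6047 genes tested were, 0.149% higher and 1.03% lower with Gfra1. This thinning called the fewest genes of the 20, with 71 against 104 to 372 in the others, of which 23 to 96 were higher. Over 20 random thinnings the fold change was positive in all 20, with a median of 0.72 and a range of 0.25 to 1.02, and Ret passed the threshold in 9. Without plate 2 the fold change in the first thinning was -0.038.

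Fgfr1, Fgfr2 and Fgfr3 did not reach the minimum count for that test. In the same thinning, Fgfr1 had 6, 3 and 1 UMIs in the Gfra1-detected sums and 6, 5 and 12 in the larger Gfra1-undetected sums.

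The genotypes were then compared on the UMI sums of the 5 libraries, with 13728 genes tested, of which 0.816% were called at an adjusted p under 0.05 (0.583% higher and 0.233% lower in Plzf lu/lu). Of the 5 receptors, Gfra1, Ret and Fgfr1 reached the minimum count, and 0 of these 3 were called. The difference for Gfra1 was a log2 fold change of -0.75 ± 0.15 (SE, 95% interval -1.03 to -0.46), that is 0.596 of the Plzf +/+ level. Its p was 0.000860 and its adjusted p, by the edgeR quasi-likelihood test with Benjamini-Hochberg adjustment, was 0.0641. Both Plzf lu/lu libraries below all Plzf +/+ libraries was a pattern shared by 16.0% of all genes tested.

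The size of the Gfra1 difference and its call varied with the cells and libraries used. On sums of cells thinned to 2000 UMIs, which weight cells equally and leave out the 63 Plzf +/+ and 19 Plzf lu/lu cells with fewer, the log2 fold change was -1.22 and the adjusted p 0.000639. Without the cells of the spermatid-like and Sertoli-like clusters described below it was -0.81, with an adjusted p of 4.80e-05, and among cells with a UMI of the germ cell gene Dazl it was -0.72, with an adjusted p of 0.0876. Without plate 1, leaving 2 libraries of each genotype, it was -0.71 with an adjusted p of 0.00759, and with each other library left out the adjusted p was 0.216 to 0.385. In 2 of these fits Plzf lu/lu is a single library, which is then assumed to vary like the Plzf +/+ libraries. Over all 12 alternatives the fold change was between -1.22 and -0.71 and the adjusted p between 4.80e-05 and 0.595.

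Within plate 4, the only plate with both genotypes, the Plzf lu/lu level of Gfra1 was 0.649 of the Plzf +/+ level, with an exact counting interval of 0.443 to 0.921. For Ret the ratio within plate 4 was 0.731 (0.424 to 1.19) and for Fgfr1 0.895 (0.277 to 2.25). These compare 1 library with 1 library, and the intervals cover counting error only. Outside plate 4, genotype and plate cannot be told apart. In the sums, fewer Gfra1-bearing cells and less Gfra1 RNA per cell cannot be told apart either, and the part of the higher Sertoli markers and lower undifferentiated markers of Plzf lu/lu in the Gfra1 difference was not tested.

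Ret and Fgfr1 gave no call between genotypes. For Ret the log2 fold change was -0.11 ± 0.18 (SE, 95% interval -0.46 to 0.24), with an adjusted p of 0.991. With plate 3 left out it was -0.38, and with the Plzf lu/lu cells of plate 4 left out it was -0.00. For Fgfr1 it was -0.80 ± 0.40 (SE), with an adjusted p of 0.418. That estimate rests on plate 3, since it was -0.05 with plate 3 left out and -1.10 with the 38 Plzf lu/lu cells of plate 4 left out. Without the spermatid-like and Sertoli-like cells it was -1.17, with an adjusted p of 0.0194.

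The balance between the 2 GDNF receptor genes was compared within libraries, which needs no scaling. The ratio of Ret to Gfra1 UMIs was 0.370, 0.411 and 0.470 in Plzf +/+ and 0.706 and 0.529 in Plzf lu/lu, so that the groups did not overlap. The nearest values, 0.470 and 0.529, are those of plate 4, and the latter rests on 18 Ret and 34 Gfra1 UMIs. No counting interval was computed for these ratios. The mean difference was 0.56 on the log2 scale, with a two-sided exact permutation p of 0.1, the smallest that 3 libraries against 2 allow, and 0.3 after adjustment over the 3 ratios compared. The ratios of Fgfr1 to Gfra1 and of Fgfr1 to Ret overlapped between genotypes, with exact permutation p of 0.8 and 0.7.

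Among cells that kept a Gfra1 UMI at 2000 UMIs, Ret was compared between genotypes on 5 sums, with 4358 genes tested and 1.74% called, 0.574% higher and 1.17% lower. Sums of 114, 100 and 81 Plzf +/+ cells held 23, 38 and 14 Ret UMIs, and sums of 50 and 5 Plzf lu/lu cells held 19 and 0. The log2 fold change was 0.37 ± 0.44 (SE, 95% interval -0.49 to 1.22), and the edgeR adjusted p was 0.799. Over 20 thinnings it was positive in 12 and called in 0, with a median of 0.05 and a range of -0.69 to 0.72. The interval takes in both a lower and a higher Ret level in Plzf lu/lu, and a difference within it was not detectable at this depth.

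The cells were also clustered together on genes other than the 5 receptors, so that receptor levels could be read by cell class without having shaped it. Gfra1 was seen most in the undifferentiated spermatogonia-like cluster, led by T, Lhx1 and Nid1, in 238 of its 293 cells (81.2%). All but 5 of those cells were Plzf +/+. At 2000 UMIs its Plzf +/+ cells had an expected Gfra1 share of 53.5% and a Ret share of 25.9%, and Fgfr1 was at 6.0%. Ret was seen in 158 of the 293 cells.

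The differentiating spermatogonia-like cluster, led by B2m and Stra8, held 159 Plzf +/+ and 124 Plzf lu/lu cells. Gfra1 was expected in 24%, 30.3% and 19.3% of its Plzf +/+ cells on plates 1, 2 and 4 and in 20.3% and 22.6% of its Plzf lu/lu cells on plates 3 and 4, so that the libraries overlapped. For Ret the values were 8.64%, 14.9% and 14.8% against 15% and 15.1%. The summed Gfra1 level of the cluster was 156 CPM in Plzf +/+ and 157 CPM in Plzf lu/lu.

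In the spermatid-like cluster, which carries Prm1 and Prm2 transcripts, Gfra1 was seen in 113 of 190 cells and Ret in 67. At 2000 UMIs Gfra1 was expected in 27.5%, 28.0% and 26.9% of its Plzf +/+ cells on plates 1, 2 and 4. It was expected in 15.5% and 11.6% of its 34 and 7 Plzf lu/lu cells on plates 3 and 4. Both Plzf lu/lu libraries were thus below all Plzf +/+ libraries, a pattern that 16.0% of all genes tested showed in the library sums. These cells had a median of 8377 UMIs, and whether a well held more than 1 cell or RNA from other cells was not tested. A cluster led by noncoding RNA such as Rpph1 and Rn7sk, left unnamed, had expected Gfra1 shares of 36.9% in Plzf +/+ and 29.2% in Plzf lu/lu cells. In an unnamed cluster led by histone genes the Gfra1 shares were 22.9% of 79 Plzf +/+ cells and 11% of 22 Plzf lu/lu cells. A further unnamed cluster, led by predicted genes such as Gm10801, took 105 of its 126 cells from plate 3. In its Plzf lu/lu cells the expected Ret share, 17.3%, was above the Gfra1 share, 13.0%. The Sertoli cell-like cluster had 1 cell with Gfra1 and 1 with Ret among 30, at a median of 3168 UMIs, and no UMI of any FGF receptor.

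**Figure D4:**
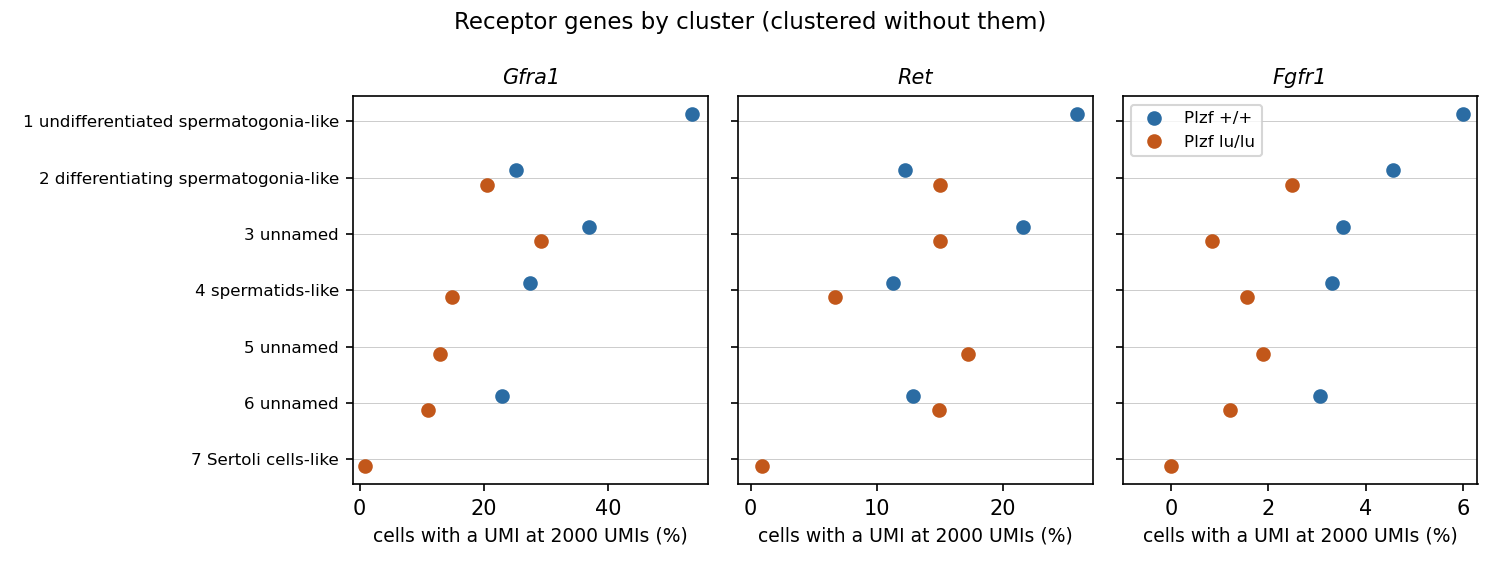
Expected percentage of cells with a UMI of Gfra1, Ret or Fgfr1 at 2000 UMIs per cell (horizontal axes) in each of the 7 clusters (vertical axis), by genotype, for groups of 15 or more cells. The undifferentiated spermatogonia-like Plzf +/+ cells stood highest for all 3 genes (53.5%, 25.9% and 6.0%) and the Sertoli cell-like cells lowest.

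Genes whose detection followed that of the receptors most closely were sought over the 834 Plzf +/+ cells thinned to 2000 UMIs, among 4131 genes seen in at least 10% of them. For Gfra1 the highest correlations of log(1 + UMIs) were with Egr2 (r = 0.23), Chd4 (0.19), Ssbp2 (0.18), Ppil4 (0.18) and Lhx1 (0.17). Egr2 and Lhx1 encode transcription factors that GDNF induces in cultured spermatogonia. Their r with Gfra1 was similar on each plate, at 0.19, 0.27 and 0.25 for Egr2 and 0.17, 0.18 and 0.17 for Lhx1 on plates 1, 2 and 4, whereas Ssbp2 was at 0.22, 0.26 and 0.01. For Ret the highest were Kat6a (r = 0.14), Sc4mol (0.14), Fbxo22 (0.14), E2f6 (0.14) and Herc1 (0.13). Ret itself ranked 53 for Gfra1, with r = 0.12 over all cells and -0.07 on plate 4, where the expectation over all thinnings gave a joint share above the product (ratio 1.21). These r come from 1 thinning, are weak and share library and depth, and they are given as a description.

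The other genes of the pathway were taken from 5 lists. Of 12 GDNF response genes of spermatogonia, 11 were tested between genotypes, and 1 rose and 2 fell in Plzf lu/lu, while 8 were not called. Over all genes tested, 0.583% were called higher and 0.233% lower. The median log2 fold change of the 11 was -0.39, against 0.00 over all genes tested. Of the 12, 5 are also among the markers of undifferentiated spermatogonia, whose summed level was lower in Plzf lu/lu.

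Lhx1 was at 97.8, 86.3 and 88.7 normalized CPM in Plzf +/+ and 21.1 and 8.04 in Plzf lu/lu, a log2 fold change of -2.30 ± 0.28 (SE) with an edgeR adjusted p of 0.0186. T, a T-box transcription factor, was at 38.4, 37.0 and 20.5 normalized CPM against 1.59 and 0, with an adjusted p of 0.0220. Mycn, a growth-promoting transcription factor of the MYC family, rose from 22.0, 19.7 and 16.9 normalized CPM to 65.7 and 44.2, a log2 fold change of 1.57 ± 0.26 (SE) with an adjusted p of 0.0430. Of the 5 fits that leave out 1 library, only that without the Plzf +/+ library of plate 1 called Lhx1, T and Mycn, and the adjusted p over the 5 reached 0.344, 0.355 and 0.421, with the direction kept in each. Among cells with a Dazl UMI the adjusted p of Mycn was 0.0585, while Lhx1 and T were still called. Egr2 was at 219, 204 and 200 normalized CPM against 101 and 36.2 but was not called, with an adjusted p of 0.129. Egr2 was called by DESeq2 (adjusted p 0.0122), without the filter on low counts (5.50e-09), without the spermatid-like and Sertoli-like cells (0.000119), after thinning (0.000126) and without plate 1 (0.00846). In edgeR it was not called with DESeq2 size factors (adjusted p 0.110), among cells with a Dazl UMI (0.164) or with replicate numbers as a block (0.595). It was not called with any other library left out either. Egr1 (log2 fold change 0.40, adjusted p 0.338) and Id4 (-0.05, 0.999), the other response genes of highest level, were not called either.

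In Plzf +/+ cells, 10 of the response genes were tested between Gfra1-detected and Gfra1-undetected sums, and 2 were called, both higher. Egr2 had a log2 fold change of 1.02 ± 0.15 (SE), with an edgeR adjusted p of 3.82e-05, and Lhx1 1.10 ± 0.22 (SE), with an adjusted p of 0.00461. The share of all genes called higher in that thinning was 0.149%, the lowest of the 20. Both were called in each of the 20 thinnings and without each plate, but by DESeq2 the adjusted p was 0.208 for Egr2 and 1.00 for Lhx1. Within Gfra1-detected cells, 1 of 7 response genes tested was called between genotypes, against 1.74% of all genes. It was Lhx1, with a log2 fold change of -3.09 ± 0.77 (SE) and an adjusted p of 0.0113, and Egr2 was at -1.21 ± 0.38 (SE) with an adjusted p of 0.0643. Lhx1 was called in 3 of 5 fits that leave out a library and Egr2 in 0, each was called in 8 of the 19 other thinnings, and by DESeq2 the adjusted p was 0.851 for Lhx1 and 0.999 for Egr2.

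**Figure D5:**
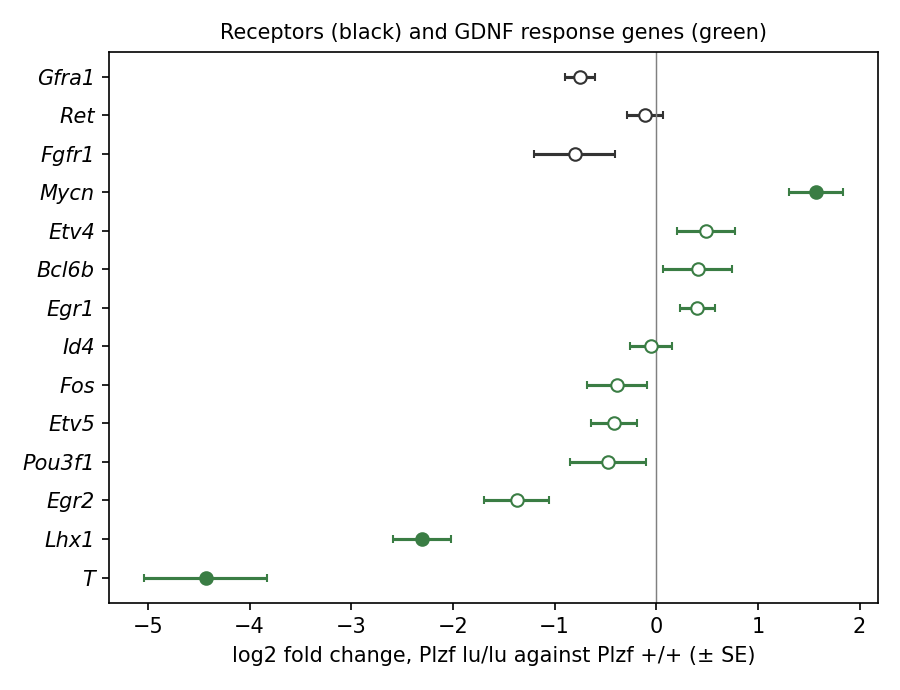
Log2 fold change of Plzf lu/lu against Plzf +/+ (horizontal axis, bars are the SE of the fit) for the 3 receptors tested, in black, and 11 GDNF response genes, in green; filled points passed an adjusted p under 0.05. Lhx1 and T lay below 0 and Mycn above it among the filled points, and the 3 receptors are open.

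In the remaining lists no gene was called in any of the 3 comparisons, in which 0.816%, 1.17% and 1.74% of all genes tested were called. By Gfra1 detection only 1 ligand and 1 further receptor or co-receptor were tested, and within Gfra1-detected cells 0 and 1. Of 14 GDNF family and FGF ligands, 4 were tested between genotypes, with a median log2 fold change of 0.67. Fgf9 was at 18.7 to 32.8 normalized CPM in the 5 libraries with a fold change of -0.36, Nrtn, a ligand related to GDNF, at 0.73, and Fgf13 at 1.47 with an adjusted p of 0.210. Of 16 further receptors and co-receptors, 9 were tested, with a median of 0.23. Sdc4, a heparan sulfate proteoglycan, was by far the most abundant at 344, 300.2 and 363 normalized CPM in Plzf +/+ and 555 and 571 in Plzf lu/lu, with an adjusted p of 0.0542. Sdc1 had a fold change of 0.23 and Gpc4 of -0.39.

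Downstream of the receptors, 29 of 32 adaptors and kinases were tested between genotypes and 0 were called, against 0.816% of all genes tested. Their median log2 fold change was -0.08, against 0.00 over all genes tested. Map2k2 and Nras, a kinase and a small GTPase among those of highest level, had fold changes of 0.13 and -0.02. Of 16 feedback inhibitors of receptor tyrosine kinase signalling, 14 were tested and 0 called, with a median of -0.15. At 0.816% of all genes called, a count of 0 says little about lists of this length. Dusp6, a phosphatase that dampens signalling below these receptors, was at 103, 110 and 109 normalized CPM in Plzf +/+ and 55.0 and 64.4 in Plzf lu/lu, a log2 fold change of -0.89 ± 0.17 (SE) with an adjusted p of 0.0632. Rasa1 and Errfi1 had fold changes of -0.27 and -0.10.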

How the data were processed

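Libraries of the 3′ ends of transcripts were made from single tdTOMATO+ testis cells of 4 wk old mice in 4 plates. The authors deposited raw UMI counts per gene symbol and cell, 1 table per genotype, with no normalization; bcl2fastq 2.18.0.12, Picard 2.9.3, STAR 2.5.4a and build GRCm38 are named in the submitters' processing notes, and the counter, annotation and filter on cells are not given in the sources used here. The plate ending of each cell's name gave its library, and for plate 4 the table a cell stands in gave its genotype. The members and gene lists were chosen with earlier results of these data known. The receptors are all named, as are the called and the 3 most abundant tested genes of each pathway list, and the 5 genes most correlated with Gfra1 and with Ret. A gene of the pathway lists that this rule names is not reported here.

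Cells were not replicates: UMIs were summed per library, filtered with filterByExpr, scaled by TMM and fitted with edgeR 4.0.16 (glmQLFit and glmQLFTest, robust) in R 4.3.3, with Benjamini-Hochberg adjustment over all genes tested. The SE is the fold change divided by the root of the F statistic. The p is the larger of the F test and, for genes under the Poisson bound, a Poisson test. Intervals of fold changes are the estimate plus or minus 1.96 SE, a normal multiplier that is too small for so few libraries. These intervals are therefore narrower than 95% intervals should be. The 3 fits were also run on counts simulated with 1 dispersion for all 3. The square root of the dispersion in the data was 0.236, 0.0549 and 0.129, so the simulation did not match each fit. Its outcome is not used here as support. Shares and co-detection at 1000, 2000 and 5000 UMIs are exact expectations over all random thinnings, an estimate added after 1 thinning proved noisy; the fits on thinned cells use seed 1, with 20 seeds in all. Clusters came from scanpy 1.11.5 (2000 variable genes, 20 components, 15 neighbors, Leiden resolution 0.5); doublets were not called, and 17 Plzf +/+ and 7 Plzf lu/lu cells had over 4 times the median UMIs of their genotype. Unthinned shares have 95% intervals by the exact Clopper-Pearson method, which like the limit of 3 cells behind a count of 0 cover counting error only. Alternatives were DESeq2 1.42.0, other scaling, no filter, other depths, cell subsets, a replicate block and leaving out each library.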

Additional observations from a re-analysis of the deposited data

How the results depend on the processing

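The Gfra1 log2 fold change between genotypes kept its direction under all 12 alternatives; it passed the threshold without the filter on low counts (-0.79), without cells of other types (-0.81), after thinning (-1.22) and without plate 1 (-0.71), and leaving out each library gave -0.84 to -0.71, with adjusted p of 0.216 to 0.385 for the other 4, of which 2 leave a lone Plzf lu/lu library assumed to vary like the others. Fgfr1 passed without cells of other types (-1.17) and gave -1.10 to -0.05 with a library left out. Ret was called under none of the 12. The number of genes called between genotypes, 112, was 583 without the filter, 50 in cells with Dazl, 1790 without cells of other types, 441 after thinning and 1 to 1387 with a library left out. The replicate numbers of the labels share only a number: deviations of same-numbered libraries correlated at 0.0218 and -0.00703. With these numbers as a replicate block, which leaves 1 residual degree of freedom, Gfra1 was at -0.79, Ret at -0.09 and Fgfr1 at -0.68, and edgeR called 0 genes, with 973 at an unadjusted p under 0.05; without the block DESeq2 called 134.

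For Ret by Gfra1 detection the fold change of 0.53 was 0.80 at 5000 UMIs and up to 1.02 over other seeds, both called; it reversed to -0.038 without plate 2 and reached 0.88 without plate 4. The 71 genes called there became 551 at 5000 UMIs, 30 in cells with Dazl, 9 without cells of other types, 14 without the plate block, 104 to 372 over the other seeds, all above the seed used, 43 to 85 with a library left out and 0 in DESeq2, which had 94 at an unadjusted p under 0.05. Within Gfra1-detected cells the Ret fold change reversed to -0.67 at 1000 UMIs and to -0.69 at the lowest seed, and ran from -7.27 to 0.76 with a library left out, the lowest against a sum of 5 cells holding 0 Ret UMIs. The 76 genes called there became 17 at 1000 UMIs, 396 at 5000, 3 in DESeq2, 18 without the filter, 22 to 132 over seeds and 2 to 76 with a library left out.

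The Gfra1 share ratio of 0.481, from means over libraries, was 0.547 at 1000 UMIs and 0.665 at 5000. For 2 or more UMIs it was 0.572 without equal depth, where the mean shares with any Gfra1 UMI were 62.9% and 38.7%. Over 20 seeds it was 0.404 to 0.523 with the cells of a genotype pooled, where the expected shares were 37.2% and 17.1%. The Ret ratio of 0.724, also from means over libraries, was 0.889 at 5000 UMIs. For 2 or more UMIs it was 0.931 without equal depth, where the mean shares with any Ret UMI were 41.1% and 35.6%. Over seeds it was 0.608 to 0.883 with cells pooled, where the expected shares were 18.6% and 14.4%. The joint share of Gfra1 and Ret over the product of their shares, 1.28 in Plzf +/+, was 1.36 at 1000 UMIs; in Plzf lu/lu it was 1.45 and 1.22, where the library of plate 4 turned from 1.04 to 0.565. At Leiden resolution 1 the undifferentiated spermatogonia-like cells were 430 in 3 clusters, and 71.2% held Gfra1, against 81.2%. The causes of these shifts were not tested. With 34 Gfra1, 18 Ret and 5 Fgfr1 UMIs in 1 of the Plzf lu/lu libraries, depth limited each comparison that rests on it.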
